A study of Homo sapiens with 15 samples.

Results

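The genes described here encode proteins that write, copy, remove and read DNA methylation, and they were chosen by name: DNMT1, DNMT3A, DNMT3B, UHRF1, UHRF2, TET1, TET2, TET3 and MBD2. Of these 9 genes, 8 had a row among the 16604 genes of the expression table, and all 8 were tested. UHRF1 was not analysed here. PolyA-captured RNA was sequenced from 5 human cell lines in 3 replicates each, 15 samples in all. OVCAR4 is a widely used line from a high-grade serous ovarian cancer, and Ovcar4Parental is the starting line, labelled sensitive to carboplatin and cisplatin. Ov4Cis is labelled cisplatin resistant and Ov4Carbo carboplatin resistant, and both came from culture in rising drug concentrations. Ov4Carbo4 and Ov4Carbo7 were each derived from a single-cell clone of Ov4Carbo and are also labelled carboplatin resistant, so each describes 1 clone. All lines were grown in vitro in the same medium with fetal bovine serum, and the labels do not say whether drug was present when RNA was taken.

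In mammalian DNA, methyl groups are carried mainly by the cytosine of CG dinucleotides, and dense methylation of a promoter is associated with a silent gene. DNMT3A and DNMT3B place new methyl groups, and after replication DNMT1 copies the pattern onto the new strand at sites recognised by UHRF1. UHRF2 is related to UHRF1. TET1, TET2 and TET3 oxidise methylcytosine, which opens the way to its removal, and MBD2 binds methylated CG sites and recruits repressor complexes. In ovarian cancer, promoter methylation of tumour suppressor and drug response genes has been studied in connection with platinum treatment.

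TET1, TET3 and DNMT3A separated the lines most clearly, and the DNA upstream of their starts is shown because CG sites are the substrate of this machinery. The 250 bases before the farthest-upstream listed start with no exon of GENCODE v29 over them are printed. They run 5′ to 3′ on the strand of the gene, from RefSeq (GRCh38.p14), with every CG dinucleotide in capitals. The windows lie at chr10:68560087-68560336 (plus strand) for TET1, chr2:73984660-73984909 (plus strand) for TET3 and chr2:25342591-25342840 (minus strand) for DNMT3A. DNMT3B, at chr20:32779602-32779851 (plus strand), is added as the member window with the fewest CG sites. No other DNMT3B window was listed, so any other start of that gene is not described. The bases just after the listed windows were found in 0 GENCODE v29 transcripts of TET1 and of TET3, 5 of DNMT3A and 1 of DNMT3B. For TET1 and TET3 the listed starts were thus not matched to that annotation.
TET1: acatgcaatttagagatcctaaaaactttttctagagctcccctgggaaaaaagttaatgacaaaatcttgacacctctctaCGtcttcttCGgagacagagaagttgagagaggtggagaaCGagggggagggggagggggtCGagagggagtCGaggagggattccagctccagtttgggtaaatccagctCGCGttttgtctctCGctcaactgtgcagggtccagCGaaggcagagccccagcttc
TET3: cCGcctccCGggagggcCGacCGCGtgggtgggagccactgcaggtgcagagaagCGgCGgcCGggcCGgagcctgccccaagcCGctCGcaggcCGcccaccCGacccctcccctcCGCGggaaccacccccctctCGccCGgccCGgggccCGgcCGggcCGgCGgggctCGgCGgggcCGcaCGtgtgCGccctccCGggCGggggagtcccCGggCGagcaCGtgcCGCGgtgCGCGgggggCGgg
DNMT3A: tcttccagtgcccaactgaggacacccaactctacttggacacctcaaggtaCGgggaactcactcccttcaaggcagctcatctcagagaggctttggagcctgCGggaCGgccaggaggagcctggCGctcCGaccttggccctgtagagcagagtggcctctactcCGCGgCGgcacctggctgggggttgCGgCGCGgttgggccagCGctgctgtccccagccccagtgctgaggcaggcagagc
DNMT3B: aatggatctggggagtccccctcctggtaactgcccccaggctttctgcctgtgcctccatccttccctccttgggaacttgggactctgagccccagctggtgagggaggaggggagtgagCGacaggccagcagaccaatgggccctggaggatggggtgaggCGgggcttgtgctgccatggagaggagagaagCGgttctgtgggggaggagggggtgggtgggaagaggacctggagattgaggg

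The 4 windows differed widely in CG content, in part because DNMT3B was chosen for its low count. TET3 held 37 CG dinucleotides, which placed it at the 96.7th percentile of the 35114 windows in the table. DNMT3A held 12, TET1 9 and DNMT3B 3, where the median window held 11. The printed DNMT3A window was the poorest of that gene, whose other windows held 15 to 33. Other windows held 4 and 11 for TET1 and 27 for TET3. The observed over expected CG ratio was 0.839 for TET3, 0.559 for TET1, 0.446 for DNMT3A and 0.129 for DNMT3B, against a median of 0.558. Several members have more than 1 listed start, and the ratio was above the median in 12 of the 17 windows of the 8 members. The GC box GGGCGG, searched on both strands, occurred in 9 of the 17 windows and in 42.6% of all windows. The CCAAT box, searched on both strands, occurred in 4 and in 32%. The E-box CACGTG, which reads the same on both strands, occurred in 4 and in 6.35%, with 2 occurrences in the printed TET3 window and 0 in the other 3 printed windows. Some windows of 1 gene overlap, among them the pair of DNMT3A windows with an E-box, so a site can be counted more than once. None of the 3 motifs contains another, and a match describes the letters only. DNA methylation was not measured in the data used here.

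Levels are given as log2 RPKM (reads scaled to gene length and library size, adjusted by the authors), a scale per length on which genes may be compared. DNMT1 was the most abundant member, with a mean of 6.46 over the 15 samples, at the 96.1th percentile of genes within a sample on average. DNMT3B followed at 4.65 and UHRF2 at 4.10. MBD2 stood at 3.54, TET3 at 3.52, DNMT3A at 2.92 and TET2 at 2.73. TET1 was the lowest, at 1.51 and the 33.1th percentile. Lines were compared with limma over all genes, two-sided, and a gene is said to have risen or fallen at a Benjamini-Hochberg adjusted p under 0.05. Where a pair of values stands in parentheses, the first is the log2 fold change and the second its limma adjusted p. The F-test for any difference among the 5 lines passed for 4 of the 8 members, where 76.9% of all genes passed. These were TET3 (adjusted p = 1.81e-05), TET1 (4.71e-05), DNMT3A (1.99e-04) and UHRF2 (0.0109). It did not pass for MBD2 (0.0658), DNMT3B (0.0956), DNMT1 (0.103) or TET2 (0.108). The table gives no read totals, so precision is judged from the replicate spread alone, at unknown depth. The submitters call the replicates biological and do not say how the cultures were kept apart.

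**Figure D1:**
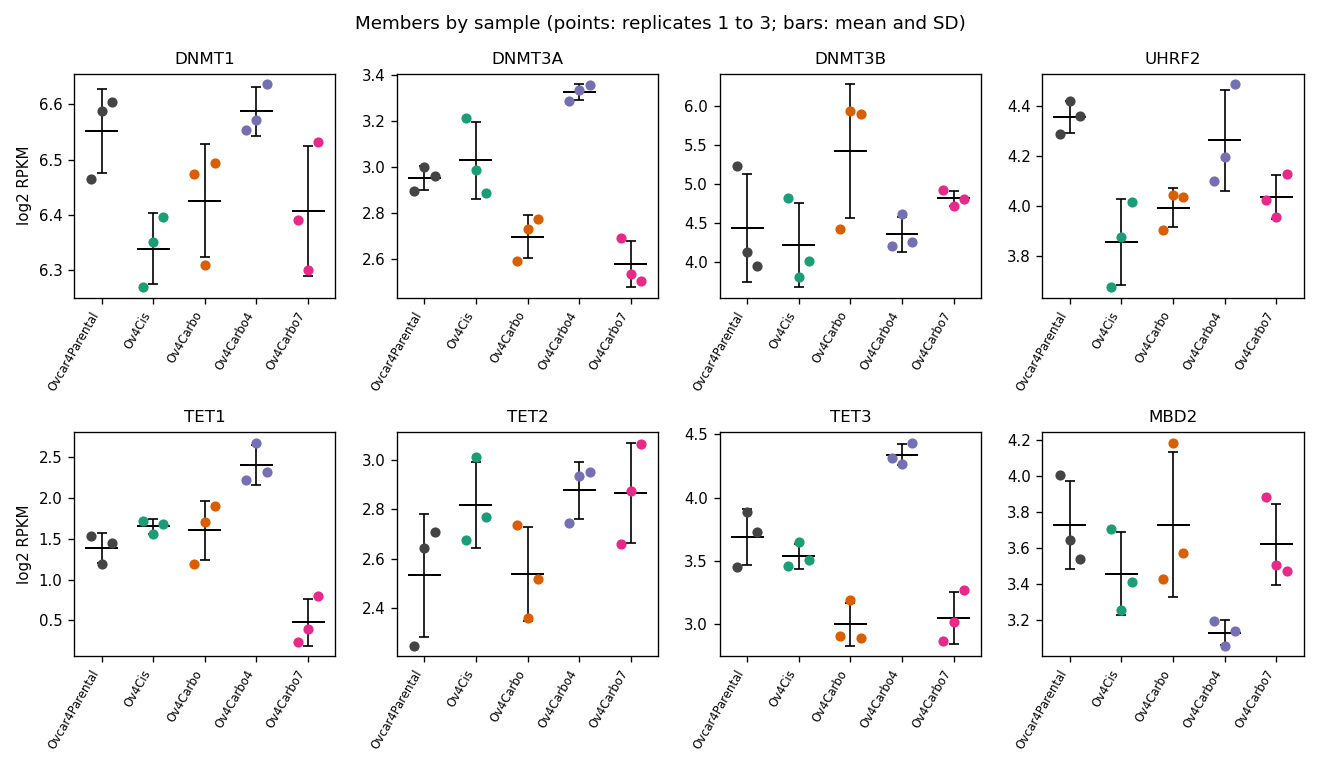
log2 RPKM of the 8 members in each sample, with points for replicates 1 to 3 from left to right and bars for the mean and SD of each line (n = 3). The vertical axes differ between panels. TET1, TET3 and DNMT3A are highest in Ov4Carbo4, and in DNMT3B replicate 1 stands apart from the other 2 in the parental line, Ov4Cis and Ov4Carbo.

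Some values common to all genes touch these results. The sample titles carry numbers in 2 series, the first with 7 samples (replicate 1 of Ov4Carbo and all of Ov4Carbo4 and Ov4Carbo7) and the second with 8 (the parental line, Ov4Cis and replicates 2 and 3 of Ov4Carbo). The labels do not call these series batches. Comparisons of either single-cell line with the parental line or Ov4Cis span both series, and there line and series cannot be told apart except through Ov4Carbo. Replicate 1 of Ov4Carbo differed from replicates 2 and 3 by a root mean square of 0.77 and 0.72 log2 units per gene, and those 2 differed by 0.57. Of 12 ovarian and epithelial markers in the table, 11 had a mean above log2 RPKM 0 in the parental line, 11 in Ov4Carbo, 11 in Ov4Carbo4, 10 in Ov4Carbo7 and 6 in Ov4Cis. Their summed RPKM ran from 961 to 1153 in the parental line, 553 to 596 in Ov4Carbo, 568 to 628 in Ov4Carbo4, 437 to 451 in Ov4Carbo7 and 342 to 442 in Ov4Cis. The mean of PAX8, a transcription factor of serous tumours, lay between 5.85 and 6.74 in the 5 lines, while WT1 was at -1.52 or lower. The leukocyte list had 2 of 9 genes in the table and a summed RPKM of at most 1.96, and the fibroblast list 5 of 9 and at most 14.6. The endothelial list had 3 of 5 and reached 40.9 in Ov4Cis through the cadherin CDH5, whereas the means of VWF and KDR were below 0 in every line. The part of these differences in the results was not tested.

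TET1, TET3 and DNMT3A rose in Ov4Carbo4 against the parental line, and each of the 3 fell in Ov4Carbo7. TET1 changed most, 2.02-fold up in the first and 1.88-fold down in the second, so that these lines from 1 population differed 3.81-fold. UHRF2 fell in Ov4Cis, Ov4Carbo and Ov4Carbo7. TET3 also fell in Ov4Carbo, and MBD2 fell in Ov4Carbo4. DNMT1, DNMT3B and TET2 passed the test in none of the 4 derived lines against the parental line.

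Against the parental line, 1 of 8 members passed in Ov4Cis, where 36.2% of all genes did, and 2 passed in Ov4Carbo (34% of all genes). In the single-cell lines 4 passed in Ov4Carbo4 (39.7% of all genes) and 4 in Ov4Carbo7 (42.6%). By direction, the 1 change in Ov4Cis and both in Ov4Carbo were falls, where 16.4% and 16.2% of genes fell and 19.8% and 17.7% rose. In Ov4Carbo4, 3 rose and 1 fell, where 21.6% of genes rose and 18% fell. In Ov4Carbo7, 0 rose and 4 fell, where 22.2% rose and 20.4% fell. Among these 4 comparisons a passing change of at least 2-fold was reached only by TET1 in Ov4Carbo4, while 15.1% of genes reached it there, 15.9% for Ov4Cis, 12.7% for Ov4Carbo and 17% for Ov4Carbo7. The median log2 fold change of the 8 members was -0.18, -0.06, 0.19 and -0.23 for Ov4Cis, Ov4Carbo and the clones Ov4Carbo4 and Ov4Carbo7, in that order, beside medians over all genes of 0.04, 0.03, 0.07 and 0.02. The members' counts in the single-cell lines were near the share of all genes, and the 4 comparisons share the parental samples.

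**Figure D2:**
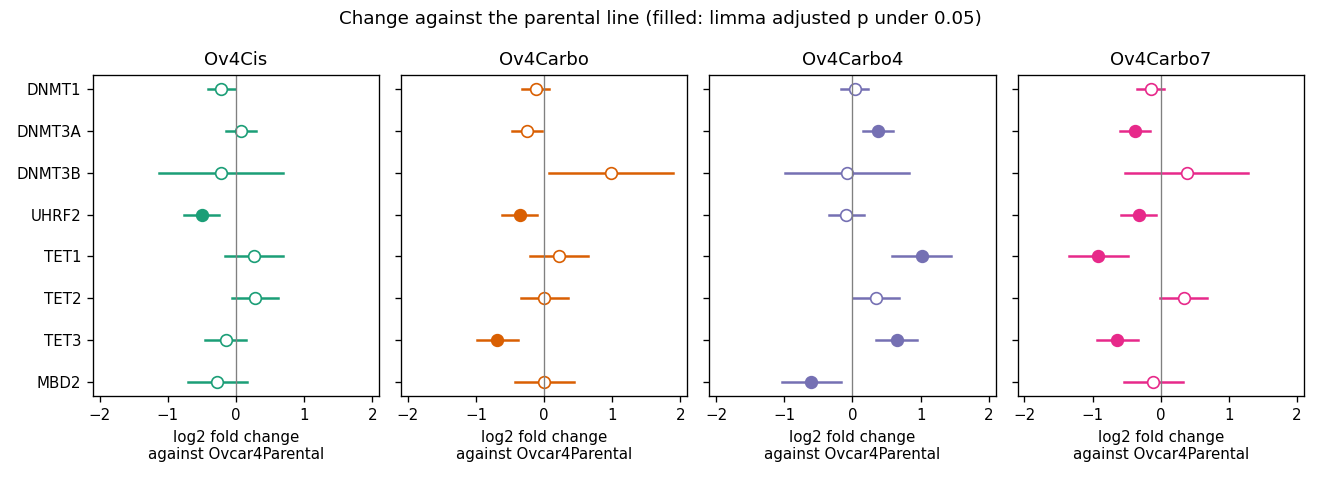
log2 fold change of each member against Ovcar4Parental in the 4 derived lines, with 95% confidence intervals from the limma model over 15 samples and filled points at an adjusted p under 0.05. TET1, TET3 and DNMT3A lie to the right of 0 in Ov4Carbo4 and to the left in Ov4Carbo7, and the intervals of DNMT3B are the widest.

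DNMT1, the maintenance enzyme, varied least of the 8 members. Its 15 values lay between 6.27 and 6.64 log2 RPKM. The means were 6.59 ± 0.04 in Ov4Carbo4, 6.55 ± 0.08 in the parental line, 6.43 ± 0.10 in Ov4Carbo, 6.41 ± 0.12 in Ov4Carbo7 and 6.34 ± 0.06 in Ov4Cis (SD, n = 3 each). The distance of 0.25 between its highest and lowest line lay at the 2.72th percentile of all genes, whose median distance was 0.86. No neighbouring lines in this order differed past the threshold, and of the 10 pairs only Ov4Cis and Ov4Carbo4 did (log2 fold change -0.25, SE 0.09, limma adjusted p = 0.0421). That call was lost in 9 of the 15 fits that each left out 1 replicate, including every fit without a replicate of Ov4Cis or Ov4Carbo4, the fit without replicate 1 of Ov4Carbo7 and those without replicate 2 or 3 of the parental line, with adjusted p up to 0.126. The 95% intervals of its log2 fold change from the parental line were -0.41 to -0.02 for Ov4Cis, -0.32 to 0.07 for Ov4Carbo, -0.16 to 0.23 for Ov4Carbo4 and -0.34 to 0.05 for Ov4Carbo7. Exons of S1PR2 overlap those of DNMT1 on the same strand in GENCODE v29, and the level of DNMT1 is uncertain to that extent.

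UHRF2 was highest in the parental line. Its log2 RPKM in replicates 1, 2 and 3 was 4.29, 4.42 and 4.36 there, 3.68, 3.88 and 4.02 in Ov4Cis and 3.90, 4.04 and 4.04 in Ov4Carbo. It was 4.10, 4.20 and 4.49 in Ov4Carbo4 and 4.03, 3.96 and 4.13 in Ov4Carbo7. The parental values lay above all values of Ov4Cis, Ov4Carbo and Ov4Carbo7 and overlapped those of Ov4Carbo4. UHRF2 was 1.41-fold lower in Ov4Cis than in the parental line (log2 fold change -0.50, SE 0.12, limma adjusted p = 0.00525), and this passed in all 15 fits that left out 1 replicate. It also fell in Ov4Carbo (-0.36, adjusted p = 0.0327) and Ov4Carbo7 (-0.32, adjusted p = 0.0453). In Ov4Carbo the call was lost without replicate 1 of that line (0.0736), and also without parental replicate 2 or 3 (0.104 and 0.0784). In Ov4Carbo7 it was lost in 8 of the 15 fits, including every fit without a replicate of Ov4Carbo7 or of the parental line and those without replicate 2 of Ov4Carbo4 or of Ov4Cis, with adjusted p up to 0.134. Among the derived lines only Ov4Cis and Ov4Carbo4 differed (-0.40, adjusted p = 0.0147), a call lost without replicate 3 of Ov4Carbo4 (0.0733) or replicate 1 of Ov4Cis (0.0651).

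DNMT3A, a de novo methyltransferase, had a narrow spread within lines. Its log2 RPKM in replicates 1, 2 and 3 was 2.90, 3.0 and 2.96 in the parental line, 3.21, 2.99 and 2.88 in Ov4Cis and 2.59, 2.73 and 2.77 in Ov4Carbo. It was 3.29, 3.34 and 3.36 in Ov4Carbo4 and 2.69, 2.53 and 2.51 in Ov4Carbo7. All 3 Ov4Carbo4 values were above every other sample, and the Ov4Carbo7 values were below the parental ones and overlapped those of Ov4Carbo. DNMT3A against the parental line was 1.30-fold higher in Ov4Carbo4 (log2 fold change 0.37, SE 0.10, limma adjusted p = 0.0103) and 1.30-fold lower in Ov4Carbo7 (-0.38, SE 0.10, adjusted p = 0.00900). In order of level, Ov4Carbo4 and Ov4Cis differed (adjusted p = 0.0286). Ov4Cis and the parental line, the parental line and Ov4Carbo, and Ov4Carbo and Ov4Carbo7 did not pass (adjusted p = 0.599, 0.0660 and 0.364). The call between Ov4Carbo4 and Ov4Cis was lost in each fit without 1 replicate of Ov4Carbo4 and in those without replicate 2 or 3 of Ov4Cis, with adjusted p up to 0.129. Without replicate 1 of Ov4Cis the fall in Ov4Carbo against the parental line passed (-0.26, adjusted p = 0.0435).

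DNMT3B, the other de novo enzyme, was uneven within lines. Its log2 RPKM in replicates 1, 2 and 3 was 5.23, 4.13 and 3.95 in the parental line, 4.82, 3.81 and 4.02 in Ov4Cis and 4.43, 5.94 and 5.90 in Ov4Carbo. It was 4.20, 4.61 and 4.26 in Ov4Carbo4 and 4.92, 4.72 and 4.81 in Ov4Carbo7. Replicate 1 was the high one in the parental line and Ov4Cis and the low one in Ov4Carbo, and of the 10 pairs of lines only Ov4Carbo4 and Ov4Carbo7 did not overlap. The pooled SD within lines was 0.56 log2 units, against a median of 0.21 over all genes. The log2 fold change of Ov4Carbo against the parental line was 0.98 (SE 0.42, 95% interval 0.08 to 1.89, limma adjusted p = 0.0875). Without replicate 1 of Ov4Carbo it was 1.48 (0.00693), and leaving out parental replicate 1 gave 1.38 (0.0248). Ov4Cis was lower than Ov4Carbo with overlapping values (log2 fold change -1.20, SE 0.42, adjusted p = 0.0413). This call was lost in 10 of the 15 fits that left out 1 replicate, those without replicate 2 or 3 of Ov4Cis or Ov4Carbo and each of those without 1 replicate of a single-cell line, with adjusted p up to 0.142. With the replicate number as a block its adjusted p was 0.0672. Replicate 1 of Ov4Carbo is also the 1 replicate of that line in the first title series.

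The log2 ratio of DNMT3B to DNMT3A was 1.03 ± 0.21 in Ov4Carbo4 and 2.24 ± 0.06 in Ov4Carbo7, and the samples of those lines did not overlap. In the parental line it was 1.48 ± 0.74, in Ov4Cis 1.19 ± 0.40 and in Ov4Carbo 2.72 ± 0.77 (SD, n = 3 each). Summed over DNMT1, DNMT3A and DNMT3B, the RPKM was 140.0 ± 21.0 in Ov4Carbo, 127 ± 4.20 in Ov4Carbo4, 125 ± 7.01 in the parental line, 119 ± 7.71 in Ov4Carbo7 and 109 ± 5.64 in Ov4Cis. DNMT1 made up between 53.9% of this sum, in replicate 2 of Ov4Carbo, and 80.7%, in replicate 3 of Ovcar4Parental.

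Among the erasers, TET1 separated the single-cell lines most. Its log2 RPKM in replicates 1, 2 and 3 was 1.54, 1.19 and 1.44 in the parental line, 1.72, 1.55 and 1.68 in Ov4Cis and 1.19, 1.71 and 1.90 in Ov4Carbo. It was 2.22, 2.68 and 2.32 in Ov4Carbo4 and 0.23, 0.40 and 0.80 in Ov4Carbo7. Every Ov4Carbo4 value lay above, and every Ov4Carbo7 value below, all 9 samples of the other 3 lines. TET1 was higher in Ov4Carbo4 than in the parental line (log2 fold change 1.02, SE 0.20, limma adjusted p = 0.00140) and than in Ov4Carbo (0.80, adjusted p = 0.00642). It was lower in Ov4Carbo7 than in the parental line (-0.91, SE 0.20, adjusted p = 0.00257) and than in Ov4Carbo (-1.13, adjusted p = 9.00e-04). In order of level, Ov4Carbo4, Ov4Cis, Ov4Carbo, the parental line and Ov4Carbo7, only the steps at either end passed. The middle steps had adjusted p = 0.864 and 0.431, and the 95% interval of Ov4Cis against the parental line was -0.17 to 0.69.

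TET3, the most abundant of the 3 oxidases on average, was likewise highest in Ov4Carbo4, and it was low in Ov4Carbo as well as in Ov4Carbo7. Its log2 RPKM in replicates 1, 2 and 3 was 3.45, 3.89 and 3.73 in the parental line, 3.46, 3.65 and 3.50 in Ov4Cis and 2.91, 3.19 and 2.89 in Ov4Carbo. It was 4.32, 4.27 and 4.43 in Ov4Carbo4 and 2.86, 3.02 and 3.27 in Ov4Carbo7. The Ov4Carbo4 values lay above every other sample, and those of Ov4Carbo and Ov4Carbo7 overlapped each other and lay below the parental line and Ov4Cis. Ov4Carbo4 was 2.54-fold above the population it came from (log2 fold change 1.34, SE 0.14, limma adjusted p = 1.92e-05) and 1.57-fold above the parental line (0.65, adjusted p = 0.00259). TET3 against the parental line was 1.61-fold lower in Ov4Carbo (-0.69, SE 0.14, adjusted p = 0.00244) and 1.56-fold lower in Ov4Carbo7 (-0.64, adjusted p = 0.00271). Ov4Cis against the parental line (95% interval -0.45 to 0.15) and Ov4Carbo7 against Ov4Carbo (-0.25 to 0.35) did not pass.

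TET2, the oxidase best known from mutations in blood cancers, passed in 0 of the 10 pairs of lines by limma, where the median gene passed in 4, and in 2 pairs at an unadjusted p under 0.05. Its means were 2.88 ± 0.12 in Ov4Carbo4, 2.87 ± 0.20 in Ov4Carbo7, 2.82 ± 0.18 in Ov4Cis, 2.54 ± 0.19 in Ov4Carbo and 2.53 ± 0.25 in the parental line (SD, n = 3 each). Without replicate 1 of Ov4Carbo, it was higher in Ov4Carbo4 than in Ov4Carbo (0.44, adjusted p = 0.0486).

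Summed over the 3 TET genes, the RPKM was 33.0 ± 1.57 in Ov4Carbo4, 21.9 ± 1.5 in Ov4Cis, 21.5 ± 2.53 in the parental line, 17.1 ± 2.52 in Ov4Carbo7 and 17.0 ± 0.552 in Ov4Carbo (SD, n = 3 each). The lowest Ov4Carbo4 sample had 31.3 and the highest sample of any other line 23.5. TET3 gave a mean of 61.5% of the sum in Ov4Carbo4 and 48.8% in Ov4Carbo7, and TET1 gave 16.2% and 8.20%. The share of TET2 was 43.0 ± 0.745% in Ov4Carbo7 and 22.3 ± 0.787% in Ov4Carbo4, the highest and the lowest of the 5 lines. The log2 ratio of the DNMT sum to the TET sum was 1.94 ± 0.03 in Ov4Carbo4, below every other sample, 2.81 ± 0.19 in Ov4Carbo7 and 2.55 ± 0.25 in the parental line.

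**Figure D3:**
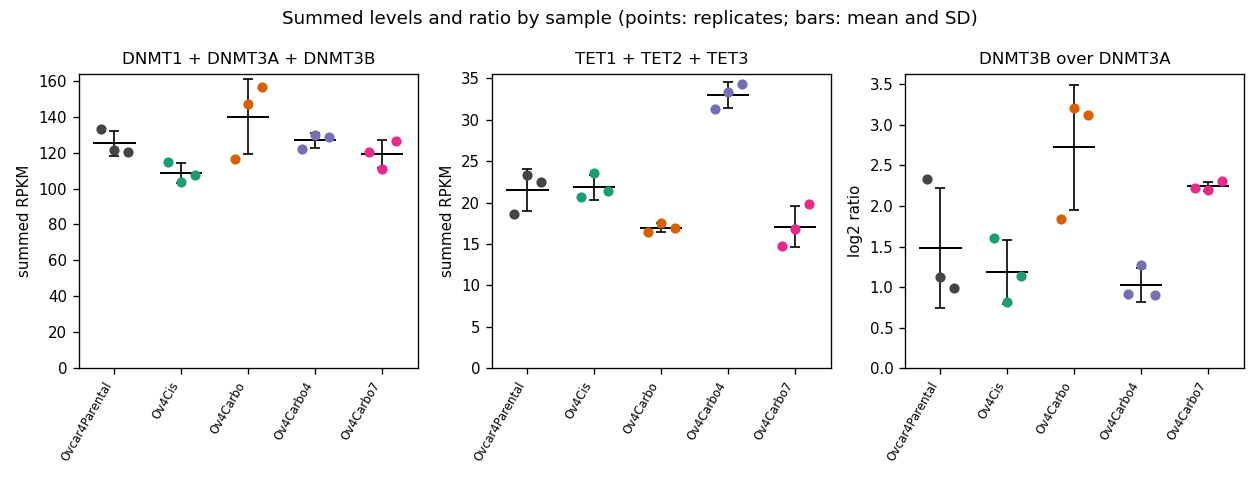
Summed RPKM of the 3 DNMT genes (left) and of the 3 TET genes (middle) and the log2 ratio of DNMT3B to DNMT3A (right) in each sample, with points for replicates and bars for the mean and SD of each line (n = 3). The TET sum of every Ov4Carbo4 sample is at 31.3 or above, and every other sample is at 23.5 or below.

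MBD2, the methyl-CG reader among the members, was lowest in Ov4Carbo4. Its log2 RPKM in replicates 1, 2 and 3 was 3.20, 3.06 and 3.14 there, 4.01, 3.65 and 3.54 in the parental line and 3.43, 4.19 and 3.58 in Ov4Carbo. It was 3.71, 3.26 and 3.42 in Ov4Cis and 3.88, 3.51 and 3.48 in Ov4Carbo7. All 3 Ov4Carbo4 values lay below every other sample. The log2 fold change of Ov4Carbo4 was -0.60 against the parental line (SE 0.20, limma adjusted p = 0.0305) and -0.60 against Ov4Carbo (adjusted p = 0.0294). Both were lost in each fit without 1 replicate of Ov4Carbo4. The first was also lost without replicate 1 or 2 of the parental line (adjusted p up to 0.119), and the second without replicate 2 of Ov4Carbo (up to 0.115). No other pair of lines passed. The log2 fold change of Ov4Carbo7 against Ov4Carbo4 was 0.49 (95% interval 0.06 to 0.93, adjusted p = 0.0564), and it passed without replicate 1 or 2 of Ov4Carbo or replicate 1 of the parental line (adjusted p = 0.0420, 0.0190 and 0.0495).

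A term for the title series, which rests on replicate 1 of Ov4Carbo against its other 2 replicates, changed several of these calls. With it, 27.3% of all genes passed in Ov4Carbo4, 25.2% in Ov4Carbo7 and 40.4% in Ov4Carbo against the parental line. Without it the shares were 39.7%, 42.6% and 34% in that order. With the term, the rises in Ov4Carbo4 against the parental line still passed, at 1.63 for TET1 (limma adjusted p = 0.00224), 0.78 for TET3 (0.0384) and 0.53 for DNMT3A (0.0397). MBD2 did not, at -0.15 against the parental line (0.776) and -0.30 against Ov4Carbo (0.431). All 4 falls in Ov4Carbo7 lost their calls, at -0.30 for TET1 (0.475), -0.50 for TET3 (0.159), -0.22 for DNMT3A (0.375) and -0.18 for UHRF2 (0.552). The fall of TET3 in Ov4Carbo still passed (-0.65, adjusted p = 0.00717) and that of UHRF2 did not (-0.32, 0.0736). DNMT3B then passed in Ov4Carbo (1.48, 0.00693) and in Ov4Carbo7 (1.87, 0.0340). Leaving out any 1 replicate changed no call of TET1, TET3 or DNMT3A in Ov4Carbo4 or Ov4Carbo7 against the parental line.

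The 2 single-cell lines lie within 1 title series, so their comparison does not span both. TET1 was lower in Ov4Carbo7 than in Ov4Carbo4 (log2 fold change -1.93, SE 0.20, limma adjusted p = 7.20e-06), as were TET3 (-1.29, SE 0.14, 1.08e-05) and DNMT3A (-0.75, SE 0.10, 5.54e-05). These 3 of 8 members passed, all lower, where 51.1% of all genes passed, 27.1% lower and 24% higher. TET1 and TET3 passed with at least 2-fold change, as 20.9% of genes did. The values of the lines did not overlap for 6 of the 8 members, all but UHRF2 and TET2, and for 67.3% of all genes. For DNMT1 the 95% interval was -0.38 to 0.02.

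Against the population they came from, Ov4Carbo4 had 4 of 8 members past the threshold (42.2% of all genes), with TET1, TET3 and DNMT3A higher (23.1% of genes) and MBD2 lower (19.2%). TET3 alone reached 2-fold, as 14.2% of genes did. DNMT3A was higher by 0.63 (limma adjusted p = 3.89e-04). Ov4Carbo7 had 1 of 8 (36.6% of all genes), which was TET1, lower and by over 2-fold (18.2% of genes were lower, 18.5% higher and 13.3% at least 2-fold). With the title series term that fall was -0.72 (adjusted p = 0.0521), and 18.2% of all genes passed. Without replicate 1 of Ov4Carbo, DNMT3B was also lower in Ov4Carbo7 (-1.10, adjusted p = 0.0264) and in Ov4Carbo4 (-1.56, 0.00439). The latter also passed without replicate 1 of Ov4Cis (0.0488) or of the parental line (0.0353).

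Between the drug-selected populations, Ov4Cis had 3 of 8 members past the threshold against Ov4Carbo (34.2% of all genes). In Ov4Cis, 2 were higher (18.1% of genes) and 1 lower (16.1%). The higher ones were TET3 (log2 fold change 0.54, SE 0.14, limma adjusted p = 0.0101) and DNMT3A (0.33, 0.0224). The lower one was DNMT3B, which was also the only one to reach 2-fold, as 13.8% of genes did. The DNMT3A call was lost without replicate 1 of Ov4Carbo (adjusted p = 0.0553) or of Ov4Cis (0.0867). Against Ov4Carbo4, Ov4Cis had 5 of 8 past the threshold, all lower (DNMT1, DNMT3A, UHRF2, TET1 and TET3), where 44% of genes passed, 22.3% lower and 21.7% higher, and none reached 2-fold (16.8% of genes). Against Ov4Carbo7 it had 3 of 8, all higher (DNMT3A, TET1 and TET3), where 39.2% passed, 20.1% higher and 19.1% lower, and TET1 reached 2-fold (14.7% of genes). The call of TET3 in the latter (0.48, adjusted p = 0.0146) was lost without replicate 1 of Ov4Carbo7 (0.0628) or replicate 2 of Ov4Cis (0.0586). With the title series term all 3 calls against Ov4Carbo7 were lost, at 0.29 for DNMT3A (adjusted p = 0.232), 0.56 for TET1 (0.181) and 0.35 for TET3 (0.321), and DNMT3B then passed, lower in Ov4Cis (-2.09, 0.0215). With the term 25.3% of all genes passed there, and 32.3% against Ov4Carbo4. Against Ov4Carbo4 the same term kept TET1 (-1.37, adjusted p = 0.00483) and TET3 (-0.94, 0.0151) and added DNMT3B (-1.63, 0.0481). The calls of DNMT1 (0.436), DNMT3A (0.0631) and UHRF2 (0.0713) were lost there, as was that of DNMT3A between Ov4Cis and Ov4Carbo (0.0553).

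The partners of DNA methylation maintenance and recruitment were mostly lower in Ov4Carbo7 than in Ov4Carbo4. Of 14 listed genes 11 were in the table, and 8 of the 11 were lower and 0 higher, with a list median of -0.66 against -0.05 over all genes, of which 27.1% were lower and 24% higher. EZH2, the catalytic subunit of a Polycomb complex, differed by -1.30 (limma adjusted p = 3.17e-06). EHMT1 and EHMT2, which methylate histones, differed by -1.23 (9.06e-07) and -0.94 (4.40e-06). TRIM28, a co-repressor of zinc finger proteins, differed by -0.94 (1.03e-04). Relative to the parental line 3 of the 11 rose and 1 fell in Ov4Carbo4, 0 rose and 6 fell in Ov4Carbo7, 1 rose and 4 fell in Ov4Cis, and 1 rose and 4 fell in Ov4Carbo. Of all genes, 21.6% rose and 18% fell in Ov4Carbo4, 22.2% and 20.4% in Ov4Carbo7, 19.8% and 16.4% in Ov4Cis, and 17.7% and 16.2% in Ov4Carbo, which are the shares to set beside the counts of the other lists as well. In Ov4Carbo4 the rises included EHMT1 (1.08, 3.70e-06), and in Ov4Carbo7 the falls included EZH2 (-0.99, 3.40e-05) and TRIM28 (-0.89, 2.23e-04).

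Genes of S phase, with which DNMT1 is known to be expressed, were also lower in Ov4Carbo7 than in Ov4Carbo4. Of 25 listed genes, all in the table, 20 were lower and 0 higher, with a median of -0.57, where 27.1% of all genes were lower and 24% higher, with a median of -0.05. Their summed RPKM ran from 751 to 934 in Ov4Carbo7 and from 1248 to 1376 in Ov4Carbo4, with 980 to 1266 in the parental line, 979 to 1235 in Ov4Cis and 918 to 1160 in Ov4Carbo. Compared with the parental line 9 rose and 1 fell in Ov4Carbo4, 0 rose and 12 fell in Ov4Carbo7, 5 rose and 3 fell in Ov4Cis, and 1 rose and 2 fell in Ov4Carbo. CCNE1, a cyclin of S phase entry, was the gene that fell in Ov4Carbo4 (-1.10, limma adjusted p = 0.00276), and it fell in Ov4Cis (-1.01), Ov4Carbo (-1.28) and Ov4Carbo7 (-1.38) as well. MCM7, a subunit of the replicative helicase, fell in Ov4Carbo7 (-1.20, 8.66e-05). The part of the S phase genes in the TET1, TET3 and DNMT3A differences was not tested.

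**Figure D4:**
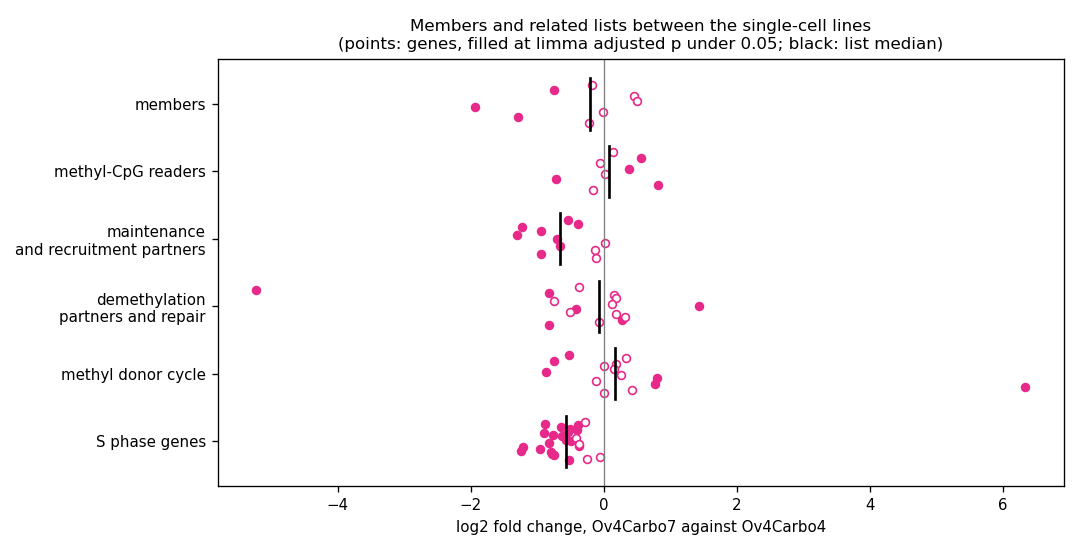
log2 fold change of Ov4Carbo7 against Ov4Carbo4 for the 8 members and for the genes of 5 related lists, with 1 point per gene, filled points at a limma adjusted p under 0.05 and black lines for list medians. The S phase genes lie mostly to the left of 0, with 20 of 25 past the threshold, as do the maintenance partners, with 8 of 11.

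Against the parental line, passing changes in a list of other methyl-CG readers and related genes stayed under 2-fold. A place on that list does not mean that a gene binds methylated CG sites. All 8 listed genes were in the table, and in that comparison 1 rose and 1 fell in Ov4Cis, 2 rose and 1 fell in Ov4Carbo, 2 rose and 0 fell in Ov4Carbo4, and 3 rose and 0 fell in Ov4Carbo7. ZBTB33, also called Kaiso, rose in Ov4Carbo4 (0.53, limma adjusted p = 0.00319) and fell in Ov4Cis (-0.61, 0.00127). MBD3, a NuRD component like MBD2, rose in Ov4Carbo (0.68, 0.0101) and Ov4Carbo7 (0.72, 0.00547).

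Of 17 genes listed as partners of demethylation and repair, 15 were in the table. Against the parental line 3 rose and 2 fell in Ov4Cis, 3 rose and 1 fell in Ov4Carbo, 2 rose and 1 fell in Ov4Carbo4, and 1 rose and 4 fell in Ov4Carbo7. IDH2, the mitochondrial enzyme that makes the TET cofactor alpha-ketoglutarate, fell in Ov4Cis (-0.95, limma adjusted p = 4.64e-04), Ov4Carbo (-1.25, 9.43e-05) and Ov4Carbo4 (-1.16, 1.06e-04). CXXC4, a CG-binding protein known to regulate TET2, rose in Ov4Carbo4 from a log2 RPKM of -4.82 to 0.57 (5.92e-06), and the size of that change depends on how low values were handled. The mean of CXXC4 was also above the parental one in Ov4Cis (-0.94) and in Ov4Carbo (-2.22, SD 1.45), and it was -4.65 in Ov4Carbo7. Its relative CXXC5 fell in Ov4Cis (-0.79, 1.52e-04) and Ov4Carbo7 (-0.58, 0.00131).

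Of 16 genes of the methyl donor cycle, which supplies S-adenosylmethionine, 14 were in the table. Relative to parental cells 1 rose and 0 fell in Ov4Cis, 2 rose and 2 fell in Ov4Carbo, 1 rose and 1 fell in Ov4Carbo4, and 3 rose and 2 fell in Ov4Carbo7. NNMT, which spends the methyl donor on nicotinamide, fell in Ov4Carbo4 from a log2 RPKM of 5.98 to 0.40 (limma adjusted p = 1.36e-07) and fell in Ov4Carbo by less (log2 fold change -1.11, 0.0198). MTHFD1, a folate cycle enzyme, fell in Ov4Carbo7 (-0.76, 7.49e-05), and methionine synthase, MTR, rose in Ov4Cis (0.36, 0.00921) and Ov4Carbo4 (0.56, 5.15e-04). The mean log2 RPKM of MTR was also above the parental 4.21 in Ov4Carbo7 (4.66) and Ov4Carbo (4.46). That of MTHFD1 was 4.94 in Ov4Carbo, 5.24 in Ov4Cis and 5.37 in Ov4Carbo4, against 5.27 in the parental line.

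Members were also compared with each other and with all genes across the 15 samples, as a description, since replicates of a line share that line's level. Among members, the highest Pearson correlations were those of DNMT3A with TET3 (0.88), DNMT1 with UHRF2 (0.82), DNMT3A with TET1 (0.80) and TET1 with TET3 (0.70), and the lowest was that of TET2 with MBD2 (-0.80). Likeness to the members was measured by the same correlation over 11970 other genes with a mean log2 RPKM of at least 1. The genes most like TET3 were TOPBP1 (0.97) and ANKRD50 (0.96). For TET1 they were ZNF260 (0.95) and FAM171A2 (0.95). For DNMT3A they were TMED8 (0.94) and TUBB2B (0.94). For DNMT3B they were MITD1 (0.94) and MACROD1 (0.94). For MBD2 they were DNAJB11 (0.96) and RSF1 (0.94). For TET2 they were PI4KB (0.92) and MAPK7 (0.91). For DNMT1 they were HR (0.90) and PTCH1 (0.89). For UHRF2 they were ARSK (0.88) and BICRAL (0.87).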

How the data were processed

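RNA was polyA-captured and sequenced for 15 samples of 5 cell lines. The deposited table gives 1 log2 RPKM value per gene and sample, named by the authors as RPKM after cqn (conditional quantile normalization, a method that adjusts for gene length and GC content). The log2 scale of the deposited values was read from the values, which reach below 0, and the cqn settings are not given in the sources used here. BWA 0.7.15-r1140, HTSeq and the build hg19/GRCh37 are named in the submitters' processing notes. No counts or read totals were used, so depth is unknown. Ensembl IDs were matched to symbols for 16448 of 16604 genes, and no filter was applied.

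Log2 values were fitted with limma 3.58.1 (R 4.3.3) over all 15 samples with 1 mean per line, and all 10 pairs of lines were compared, with Benjamini-Hochberg adjustment over all genes within a pair. RPKM sums were computed from 2 raised to the deposited values. The fit was tested on simulated data. Members and gene lists were chosen with earlier results of these data known. A listed gene is not reported here and was left out of the counts. Besides all members, at most 3 passing genes per list and line with the largest change against the parental line, and 2 like genes per member, could be named. A listed gene not named for a line may therefore also have passed there. Promoter windows came from RefSeq (GRCh38.p14), another build than the authors'. Alternatives were a variance trend, quantile normalization, median centring, a filter at log2 RPKM 1, log2(RPKM + 1), only the compared lines, a replicate block, a title series term, stricter thresholds and leaving out each replicate.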

Additional observations from a re-analysis of the deposited data

Results flagged for a closer look

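Against the shared parental samples, 3 members moved in opposite directions in lines that come from the same carboplatin-selected population, and the difference between those lines was tested directly with limma. TET1 was higher in Ov4Carbo4 and lower in Ov4Carbo7, a difference of 1.93 on the log2 scale (adjusted p = 7.20e-06). TET3 was higher in Ov4Carbo4 and lower in both Ov4Carbo and Ov4Carbo7, with differences of 1.34 (adjusted p = 1.92e-05) and 1.29 (1.08e-05). DNMT3A was higher in Ov4Carbo4 and lower in Ov4Carbo7, a difference of 0.75 (adjusted p = 5.54e-05). Between Ov4Carbo4 and Ov4Carbo7 the values of these members did not overlap, as was so for 67.3% of all genes. With the title series term the falls in Ov4Carbo7 against the parental line lost their calls, where 25.2% of all genes passed, against 42.6% without the term.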

How the results depend on the processing

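Of the 80 tests of a member between 2 lines, all kept their call with median centring and with quantile normalization, 78 with log2(RPKM + 1), 78 with a filter at a mean log2 RPKM of 1, 78 with a variance trend, 72 with only the compared lines in the fit and 60 with the title series term. No passing change reversed in any of the 25 settings. Beside each count of members below, a percentage gives the share of all genes passing in the same setting. At an adjusted p under 0.01, the members passing were 1 for Ov4Carbo against Ovcar4Parental (19.4%) and 2 for Ov4Carbo4 against Ovcar4Parental (25.9%). For Ov4Cis they were 0 against Ov4Carbo (20.2%), 2 against Ov4Carbo4 (29.7%) and 2 against Ov4Carbo7 (25.8%). There were also 3 for Ov4Carbo7 against Ovcar4Parental (29%) and 3 for Ov4Carbo4 against Ov4Carbo (26.4%). With a 2-fold minimum they were, against Ovcar4Parental, 0 for Ov4Cis (15.9%), 0 for Ov4Carbo (12.7%), 1 for Ov4Carbo4 (15.1%) and 0 for Ov4Carbo7 (17%). Against Ov4Carbo they were 1 for Ov4Carbo4 (14.2%) and 1 for Ov4Cis (13.8%). They were 0 for Ov4Cis against Ov4Carbo4 (16.8%) and 1 for Ov4Cis against Ov4Carbo7 (14.7%). For Ov4Carbo7 against Ov4Carbo4 it was 2 (20.9%). With only the compared lines in the fit, which leaves fewer samples for the spread, they were 1 for Ov4Carbo against Ovcar4Parental (14.1%). For Ov4Carbo7 against Ov4Carbo4 they were 5 (58.5%), and for Ov4Cis 1 against Ov4Carbo (17.7%) and 3 against Ov4Carbo4 (52.7%). For Ov4Carbo4 against Ov4Carbo it was 3 (27%). With the title series term they were 0 for Ov4Carbo7 against Ov4Carbo (18.2%) and 1 for Ov4Carbo7 against Ovcar4Parental (25.2%). For Ov4Cis they were 3 against Ov4Carbo4 (32.3%) and 1 against Ov4Carbo7 (25.3%), and the cause was not tested. Where the count is 1, that member is DNMT3B, which had not passed without the term. DNMT3B is also among the 3. With this term 3 passed for Ov4Carbo4 against Ovcar4Parental (27.3%) and 3 against Ov4Carbo (27.6%). For Ov4Carbo7 against Ov4Carbo4, 1 was higher and 3 lower (54.8% of all genes passed). For Ov4Cis against Ov4Carbo, 1 was higher and 1 lower (42.5% passed). Leaving out 1 replicate at a time gave a range of counts for each pair, here with the range of the share of all genes. Against Ovcar4Parental it was 1 to 3 for Ov4Carbo (24.4% to 40.4%), with 1 without replicate 2 or 3 of the parental line. It was 3 to 4 for Ov4Carbo4 (31.3% to 43.5%), 3 to 4 for Ov4Carbo7 (35.5% to 46.8%) and 1 in every fit for Ov4Cis (29.5% to 40.1%). Against Ov4Carbo it was 3 to 6 for Ov4Carbo4 (32.6% to 46.3%) and 2 to 3 for Ov4Cis (24.8% to 42.5%). For Ov4Carbo7 it was 1 to 2 there (27.5% to 43.6%), with 2 without replicate 1 of Ov4Carbo. Ov4Carbo7 against Ov4Carbo4 gave 3 to 4 (44% to 55%), and Ov4Cis against Ov4Carbo7 gave 2 to 3 (30.8% to 43.3%). Ov4Cis against Ov4Carbo4 gave 2 to 5 (36.1% to 48.2%), with 2 without replicate 3 of Ov4Carbo4 and 3 without any other replicate of the compared lines. The members differing among the 5 lines numbered 4 to 6. Depth is unknown, and 3 replicates per line limit the precision.

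Over all lines and genes together, replicate numbers showed no pairing. Deviations correlated over 0.1 in 11 of 30 same-numbered pairs (median -0.0218) and 24 of 60 others (median 0.0184). Of 15 samples, 4 correlated best with their own number. Likeness within some lines was not tested. In the parental line, Ov4Cis and Ov4Carbo7, replicate 1 was highest for DNMT3B and MBD2 and lowest for TET2 and TET3. In Ov4Carbo and Ov4Carbo4 it was lowest for DNMT3B. With the replicate number as a block the count changed only for Ov4Cis against Ov4Carbo, from 3 to 2 (31.3% of all genes passed). Against Ovcar4Parental it was 1 for Ov4Cis (33.9% of all genes), 2 for Ov4Carbo (30.5%), 4 for Ov4Carbo4 (37.1%) and 4 for Ov4Carbo7 (39.8%).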

Other observations

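Cancer-testis and germline genes are normally methylated and silent outside the germline, and 8 of 47 listed genes were in the table. The rule by which genes entered the deposited table is not known, and genes silent in all lines may be missing from it. The counts therefore describe these 8 genes and not the list. Against the parental line 5 of the 8 rose and 0 fell in Ov4Cis. In Ov4Carbo 2 rose and 4 fell, in Ov4Carbo4 2 rose and 5 fell, and in Ov4Carbo7 2 rose and 4 fell. PRAME, a tumour antigen, rose in Ov4Carbo (log2 fold change 0.59, limma adjusted p = 0.00396), Ov4Carbo4 (1.22, 1.29e-05) and Ov4Carbo7 (1.06, 3.10e-05). Its mean log2 RPKM was highest in Ov4Cis, at 6.10, against 4.24 in the parental line. HORMAD1, a meiotic protein, rose in Ov4Carbo (3.18, 1.92e-04) and Ov4Carbo4 (2.83, 2.99e-04). Its mean log2 RPKM was also above the parental -2.46 in Ov4Cis (-0.33) and was -3.54 in Ov4Carbo7. The parental value is low, so the size of these changes also depends on how low values were handled. MAGEA3 rose in Ov4Cis (4.12, 1.90e-05) and fell in Ov4Carbo (-4.09, 4.02e-05), Ov4Carbo4 (-2.61, 7.35e-04) and Ov4Carbo7 (-6.44, 6.43e-07). PASD1 fell in Ov4Carbo7 (-8.20, 3.19e-05). In Ov4Carbo7 their mean log2 RPKM was -5.88 and -5.68, and the size of these falls depends on how low values were handled. The reads of MAGEA3 cannot be fully told apart from those of the near-identical MAGEA6.

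Of 40 genes known for promoter methylation in ovarian cancer, 31 were in the table. Compared with parental cells 8 rose and 10 fell in Ov4Cis, 11 and 9 in Ov4Carbo, 12 and 10 in Ov4Carbo4, and 8 and 9 in Ov4Carbo7. To be read beside the counts of both lists, the share of all genes that passed in either direction was 42.6% for Ov4Carbo7, 39.7% for Ov4Carbo4, 34% for Ov4Carbo and 36.2% for Ov4Cis. SFRP1, a secreted WNT antagonist, fell in Ov4Carbo (-3.42, limma adjusted p = 3.47e-06), Ov4Carbo4 (-2.91, 7.60e-06) and Ov4Carbo7 (-4.39, 2.90e-07). ARMCX2 fell by more in the same lines, from a mean log2 RPKM of 3.10 to -6.99, -5.95 and -6.11 in that order. The size of that fall depends on how low values were handled. In Ov4Cis the mean log2 RPKM of SFRP1 (1.02) and of ARMCX2 (0.53) was also below the parental 3.25 and 3.10. In Ov4Cis, CDH1 fell (-8.14, 2.25e-09), to a mean of -3.52, and HOXA11 rose (4.59, 1.53e-09). In Ov4Carbo, Ov4Carbo4 and Ov4Carbo7 the mean of CDH1 was 2.88, 3.62 and 1.80, below the parental 4.63. That of HOXA11 was 1.17, 1.17 and 2.18, above the parental -0.58. TIMP3, a protease inhibitor, fell in Ov4Carbo7 (-3.23, 3.16e-06), to a mean of 2.11. Its mean was 2.94 in Ov4Cis, 3.35 in Ov4Carbo and 3.29 in Ov4Carbo4, also below the parental 5.35. The cadherin CDH13 rose in Ov4Cis (3.11, 4.22e-05), Ov4Carbo (2.59, 3.07e-04) and Ov4Carbo4 (3.15, 4.48e-05). Its mean in Ov4Carbo7, 2.12, was above the parental 0.50 as well.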
